A study of Mus musculus with 27 samples.

Results

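Pvalb interneurons are described here as 434 single nuclei from the hippocampi of 27 mice, 1 library per mouse. They were chosen by a rule on molecule counts (unique molecular identifiers, UMIs). A nucleus had 200 to 8000 detected genes and at most 5% of its UMIs from mitochondrial genes, at least 3 UMIs of Gad1 and Gad2 together, at most 1 UMI of Slc17a7, at most 1 of Mog and Mag together, at least 2 of Pvalb, and more Pvalb UMIs than of Sst, Vip or Lamp5 each. The 434 were 0.18% of the 241266 nuclei within the gene and mitochondrial limits (of 241938 barcodes) and 3.03% of the 14328 inhibitory nuclei, which met every condition except those on Pvalb, Sst, Vip and Lamp5. The same rule with the genes exchanged gave 1431 Sst, 611 Vip and 543 Lamp5 nuclei. These values of the 4 marker genes chose the members, so differences between the classes are given as descriptions without a test.

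The 6 groups of littermates were labelled by 2 loci. There were 5 Cgas+/+ mice (3 males, 2 females), 2 Cgas+/- males and 2 Cgas-/- males without the tau transgene, and 6 mice each (3 males, 3 females) were P301S Cgas+/+, P301S Cgas+/- and P301S Cgas-/-. P301S is a mutant human tau transgene driven by the mouse prion promoter, which is active well beyond these interneurons, and the Cgas deletion is present in every cell from the germline. Cgas encodes the cytosolic DNA sensor that acts through STING on type I interferon genes. The labels give no age. The 3 contrasts were P301S Cgas+/+ minus Cgas+/+ (tau), P301S Cgas-/- minus P301S Cgas+/+ (deletion) and P301S Cgas+/- minus P301S Cgas+/+ (heterozygous), all of which share the P301S Cgas+/+ mice. The targeted gene, listed as Mb21d1, did not separate the labelled Cgas genotypes. Over all passing nuclei it was at 2.17 ± 0.696 CPM (UMIs of the gene per 1000000 UMIs; SD, n = 6) in P301S Cgas+/+, 1.82 ± 0.360 in P301S Cgas+/- and 1.74 ± 0.384 in P301S Cgas-/- libraries, lower in the direction of the labels but with overlapping ranges (exact permutation tests, unadjusted p = 0.316 and 0.223). In the 5 Cgas+/+ libraries without the transgene it was at 1.44 ± 0.203 CPM, lower than in P301S Cgas+/+ (exact permutation test, unadjusted p = 0.0433). It was at 1.89 CPM in the 2 Cgas-/- libraries without the transgene, and all 434 members held 6 UMIs of it. Every genotype below is therefore that of the label alone.

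Parvalbumin is a calcium-binding protein of GABA-releasing interneurons that fire fast and without adaptation. In the hippocampus these comprise basket cells, which wrap the cell bodies of pyramidal neurons, bistratified cells on their dendrites, and axo-axonic (chandelier) cells on the start of their axons. They derive from the medial ganglionic eminence under Lhx6 and Sox6, use Kv3 potassium channels for brief spikes and synaptotagmin 2 for rapid release, and often carry a perineuronal net of aggrecan and its partners. MEF2C, a transcription factor held back by class IIa histone deacetylases, is needed for their maturation.

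The 250 bases before the start sites of Pvalb, the gene of the rule, and of Syt2, the gene with the highest class ratio below, are shown. They hold matches of 2 motifs, those of MEF2 factors and of estrogen-related receptors (RefSeq windows, GRCm38.p6). Levels of Mef2c and Ppargc1a in members are given below, and none is given for the receptors. Each gene has 2 start sites in the table, and for each only the 1 window with a match is shown, the other holding none of that motif. Capitals mark a match of the MEF2 consensus 180 bases before the Pvalb start and a match of the extended half-site of estrogen-related receptors, partners of PPARGC1A, 167 bases before the Syt2 start. In the lines below, Pvalb is chr15:78206401-78206650 on the minus strand and Syt2 is chr1:134646362-134646611 on the plus strand.
Pvalb: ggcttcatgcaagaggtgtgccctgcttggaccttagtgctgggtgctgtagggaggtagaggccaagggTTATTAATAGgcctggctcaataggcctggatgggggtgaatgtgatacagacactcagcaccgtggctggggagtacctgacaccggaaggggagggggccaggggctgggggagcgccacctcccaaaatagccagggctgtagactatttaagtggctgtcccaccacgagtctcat
Syt2: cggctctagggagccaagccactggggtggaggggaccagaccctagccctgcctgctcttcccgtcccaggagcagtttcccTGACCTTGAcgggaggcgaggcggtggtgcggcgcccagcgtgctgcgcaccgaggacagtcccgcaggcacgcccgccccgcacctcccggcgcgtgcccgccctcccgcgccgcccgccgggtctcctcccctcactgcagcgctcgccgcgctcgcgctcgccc
On both strands of windows from 250 bases before to 50 after each start, the MEF2 consensus occurred in 1047 of 32851 windows (3.19%). The 24 marker genes with a window had 44 windows, of which 2 held a match, in Pvalb and Sox6 only. The extended half-site TNAAGGTCA occurred in 421 windows (1.28%), and in 1 of the 44 windows of those marker genes, in Syt2 only. No marker gene held both, and a match describes letters, not binding.

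Members came in numbers of 4 to 35 per library (median 15), and 20 libraries held at least 10. The members were the deepest of the classes, at a median of 13332.5 UMIs and 3828 genes against 11083 UMIs for Sst, 7440 for Vip and 10650 for Lamp5 nuclei. A cut of 2 UMIs on a scarce transcript favours deep nuclei, so this depth is not read as a trait of the class. A limit of 4000 genes, which the study's methods state, would have removed 189 members (43.5%) but 16.4% of inhibitory nuclei. Most sat at the edge of the rule, with 296 at exactly 2 Pvalb UMIs, 99 at 3, 27 at 4 and 12 at 5 or 6. Just outside it, 827 inhibitory nuclei held 1 Pvalb UMI and none of Sst, Vip or Lamp5, and 13 held at least 2 Pvalb UMIs but as many of another marker. On the other conditions, 36 members had exactly 3 Gad UMIs with 25 nuclei outside at 2, and 38 had 1 Slc17a7 UMI with 7 nuclei outside at 2. At least 2 Pvalb UMIs were found in 4 of 21201 excitatory nuclei (0.0189%, median 13333 UMIs) and in 1 of 30279 oligodendrocyte nuclei (0.00330%, median 2139 UMIs), against 3.12% of inhibitory nuclei (median 9585.5 UMIs).

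Libraries held 7246 to 14770 barcodes and 46091490 to 79484316 UMIs, of which 60589 to 680930 were in members. Of 233834 distinct barcodes 7288 (3.12%) occurred in more than 1 library, and no barcode was a member in 2. A doublet score placed 28 members (6.45%) among likely doublets, against 6.93% of inhibitory nuclei. One library stood apart: P301S Cgas+/- replicate 1 had 15.8% inhibitory nuclei with Meis2, a factor of other GABA neurons, at 1283 CPM, against at most 7.26% and 544 CPM in the other libraries. P301S Cgas+/+ replicate 3 had the lowest depth, a median of 2233 UMIs per nucleus, with 2.05% inhibitory nuclei.

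The members carried the label's markers beyond those of the rule. Of 28 such genes, 23 were higher than in pooled Sst, Vip and Lamp5 nuclei, 14 of them by more than 2-fold, and 1 was lower by more than 2-fold. Among all 6437 genes at 20 CPM or more, 266 were higher and 442 lower by that factor. The 28 markers were not held to that limit, and Cox6a2 and Pthlh among them were under 20 CPM in members. All levels are CPM of summed UMIs per mouse, as mean ± SD over 27 mice, and are compared within a gene only since they are not divided by length.

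**Figure D1:**
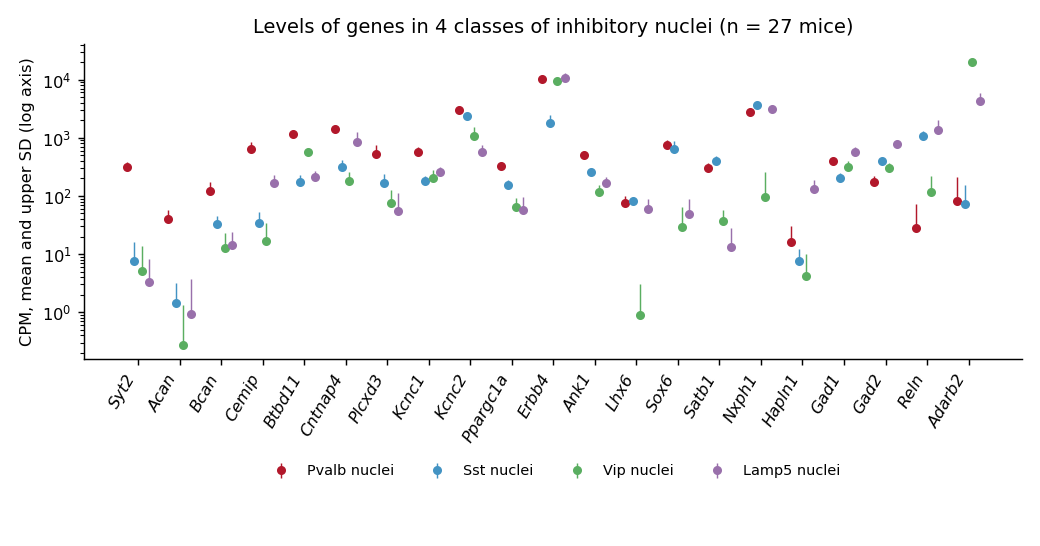
Levels of 21 genes (x axis) in Pvalb, Sst, Vip and Lamp5 nuclei, as mean CPM over 27 mice on a log axis with the upper SD as a line. Syt2 and Acan are far above the other classes in Pvalb nuclei (318 and 39.7 CPM), Lhx6, Sox6 and Satb1 lie close to Sst nuclei, and Reln and Adarb2 are low.

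Syt2, the calcium sensor of fast release, was at 318 ± 67.2 CPM in members, from 165 to 456 in single mice, and at 6.59 ± 6.03 in the pooled other classes, where no mouse exceeded 23.8. Btbd11, which binds postsynaptic density proteins at their excitatory inputs, was at 1145 ± 218 against 254 ± 42.2 CPM. Cemip, a hyaluronan-binding protein, stood at 638 ± 191 against 61.7 ± 19.8 CPM. Each of these was higher in members in 27 of 27 mice. Some of the other genes with the highest ratios encode cytoskeletal or matrix proteins, with Mypn at 122 ± 43.7 against 7.65 ± 5.14, Myo1e at 179 ± 109 against 11.7 ± 6.06, Adamts15 at 34.2 ± 21.2 against 1.68 ± 1.51 and Col16a1 at 29.2 ± 14.6 against 1.58 ± 1.33 CPM. The unannotated transcripts Gm26633 (98.7 against 4.34 CPM) and Gm26673 (110 against 8.17 CPM) ranked with them.

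Channels of the fast-spiking list showed 7 of 37 measured genes above the other classes by more than 2-fold and 5 below. Kcnc1, the Kv3.1 channel of brief spikes, was at 569 ± 133 against 203 ± 36.6 CPM. Kcnc2 was high in members (3000 ± 496 CPM) and also in Sst nuclei (2360), and lowest in Lamp5 nuclei (569). The Kv1 channel gene Kcna1 was also higher, at 175 ± 55.2 against 43.9 ± 10.7 CPM, as was the auxiliary subunit Kcnab3 at 35.4 ± 15.2 against 6.41 ± 2.69. Kcnip2, a partner of Kv4 channels, was higher (148 ± 53.7 against 28.8 ± 11.8 CPM), while the Kv4 channel Kcnd3 itself was lower (139 ± 69.3 against 610 ± 105). The R-type calcium channel Cacna1e (46.5 against 263 CPM), the auxiliary subunit Cacna2d3 (353 against 2084) and the M-current channel Kcnq5 (226 against 970) were also lower.

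Release and receptor genes split. Gad2 was lower in members than in any other class (175 ± 44.5 against 463 ± 52.7 CPM), although Gad1 and Gad2 together were part of the rule. Cplx1, a complexin of the release machinery, was at 141 against 65.5 CPM and its paralogue Cplx2 at 6.69 against 67.5, and the vesicle protein Synpr at 137 against 1265. Of GABA receptor subunits, Gabrd, of extrasynaptic receptors, was higher (62.2 against 11.96 CPM) and Gabra2 lower (51.0 against 202). Of glutamate receptor genes measured, 5 of 24 were lower by more than 2-fold, with Grin3a at 58.9 against 670 CPM, and Erbb4, the neuregulin receptor of excitatory inputs, was the 1 higher (10389 ± 1661 against 5131 ± 849 CPM). Its level in Lamp5 nuclei was 10491 and in Vip nuclei 9317 CPM, so it set members apart from Sst nuclei (1807) alone.

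Of the perineuronal net genes, 4 of 10 were higher and 3 lower. Acan, the aggrecan core protein, was at 39.7 ± 17.9 against 1.13 ± 1.27 CPM, Bcan at 122 ± 49.7 against 24.8 ± 7.50 and Tnr at 1125 ± 247 against 554 ± 151. The link protein Hapln1 was lower (15.9 ± 14.8 against 35.3 ± 15.7 CPM), the pool being set by Lamp5 nuclei at 134 CPM. Ppargc1a, the coactivator of mitochondrial genes, was at 326 ± 58.5 against 116 ± 26.0 CPM, and with Ldhb (72.9 against 30.8) it made up the 2 of 14 mitochondrial and energy genes over 2-fold. Mef2c was at 1096 ± 126 against 446 ± 65.4 CPM and higher in 27 of 27 mice, while the deacetylases Hdac9 (273 against 675) and Hdac7 (28.5 against 64.7) were lower.

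Lhx6 was at 74.5 CPM in members, 81.6 in Sst, 59.7 in Lamp5 and 0.905 in Vip nuclei, and Sox6 at 753 CPM in members, 651 in Sst, 48.3 in Lamp5 and 29.1 in Vip nuclei. Most markers of other interneuron classes were low. Of genes outside the rule, 9 of 12 on the Sst list, 11 of 13 on the Vip or Cck list and 5 of 8 on the Lamp5 list were at less than 50% of their level in the pooled other classes. Those above that level were Chrm2 of the Sst list (205 against 167 CPM) and, of the Lamp5 list, the GABA receptor subunit Gabrd (62.2 against 35.3 in Lamp5 and 5.68 in Sst nuclei) and Pde11a (213 ± 217 against 200). Adarb2, of Vip and Lamp5 cells, was at 83.0 ± 128 CPM against 19725 in Vip nuclei, Reln at 27.7 ± 44.8 against 1053 in Sst and 1357 in Lamp5 nuclei, Elfn1 at 13.3 against 265 in Sst nuclei, and the cannabinoid receptor Cnr1 at 7.37 against 415 in Vip nuclei. The 9 oligodendrocyte markers outside the rule summed to 88.6 ± 124 CPM against 18400 in oligodendrocyte nuclei, with a range of 4.52 to 660 over libraries. The 15 excitatory markers summed to 984 ± 234 CPM, against 1109 ± 81.5 in the pooled other classes and 2540 in excitatory nuclei. Their sum ran from 918 to 1852 CPM in P301S Cgas+/+, the group shared by the contrasts, and from 693 to 1025 in Cgas+/+, 728 to 1027 in P301S Cgas+/- and 761 to 1230 in P301S Cgas-/- libraries, and its part in the genotype results was not tested. Some usual markers were near 0 in these nuclei: Tpbg had no UMI, and Cox6a2 and Pthlh were at 1.26 and 2.70 CPM. Tac1 was found in 46 members (10.6%) and Npy in 8 (1.84%).

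Members were not uniform, and the splits below were chosen after their values were seen, so they carry no test. The 28 members (6.45%) with at least 2 UMIs of Unc5b, a netrin receptor and chandelier marker, came from 19 libraries with at most 5 from 1. Pooled over nuclei, the chandelier markers Vipr2 (48.5 against 2.06 CPM in the other 406), Scube1 (36.9 against 5.66) and Pthlh (13.9 against 1.37) were higher in them, and C1ql1 had no UMI outside them. The syntrophin Sntb1 was at 272 against 4.29 CPM and Pde3a at 309 against 14.4. Syt2 was lower (99.3 against 350 CPM), as was Eya4 (4.62 against 135), while Kcnc1 was at 674 against 581 CPM. Nkx2-1 had no UMI in any member.

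**Figure D2:**
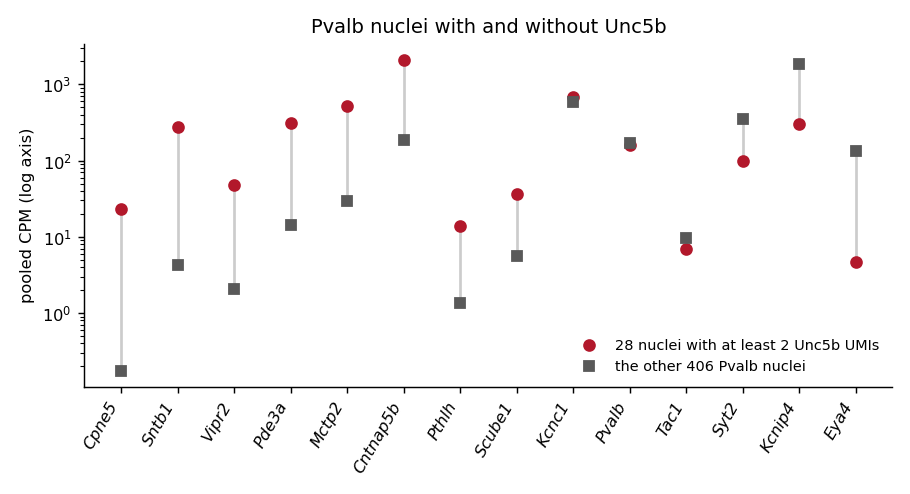
Pooled CPM on a log axis of 14 genes (x axis) in the 28 Pvalb nuclei with at least 2 Unc5b UMIs (circles) and in the other 406 (squares). Sntb1, Pde3a and Cntnap5b are at least 10 times higher in the first set, Eya4 is lower, and Pvalb and Kcnc1 lie together.

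The muscarinic receptor Chrm2 divided the members more evenly, with at least 2 UMIs in 191 (44.0%) from all 27 libraries. These had more Gpc6 (1082 against 265 CPM) and Gfra1 (309 against 78.6) and less Cntn5 (1268 against 3359), Eya4 (37.3 against 209) and Pcdh15 (322 against 1025). In all, 5 members held no UMI of Erbb4 or Nxph1, 2 of them in P301S Cgas+/+ replicate 2 and 1 each in P301S Cgas+/- replicate 1 and in Cgas+/+ replicates 3 and 5. None held an Lhx6 UMI, and 3 of them had 194 to 293 UMIs of the IP3 receptor Itpr1 and 27 to 72 of Car8, which binds it. In the other 429 members Itpr1 was at 276 and Car8 at 0.645 CPM pooled. All 5 held 2 or 3 Pvalb and at least 2 Gad1 UMIs, and results are given without them where that changes a call.

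The share of members among inhibitory nuclei asks whether fewer such nuclei were recovered with tau and more with less Cgas. In P301S Cgas+/+ libraries it ran from 0.933% to 3.33% (median 2.37%, mean 2.20 ± 0.872%, SD, n = 6). In P301S Cgas-/- libraries it ran from 3.17% to 7.19% (median 3.82%, mean 4.43 ± 1.48%, SD, n = 6). Of the latter, 5 of 6 lay above every P301S Cgas+/+ library, and the difference was 2.22 percentage points (SE 0.700, exact two-sided permutation test over mice, p = 0.00433, Benjamini-Hochberg adjusted over 12 tests p = 0.0260). P301S Cgas+/- libraries spread from 0.781% to 8.92% (3.88 ± 2.77%, n = 6) and Cgas+/+ libraries from 1.08% to 5.16% (3.26 ± 1.51%, n = 5), and neither differed from P301S Cgas+/+ beyond the spread (heterozygous 1.67 points, exact p = 0.18, adjusted 0.308; tau -1.06 points, exact p = 0.165, adjusted 0.308). The pairs of Cgas+/- (2.25%) and Cgas-/- (2.43%) mice were not tested. Fewer nuclei of the type and fewer Pvalb molecules per nucleus cannot be told apart by a rule on Pvalb. Meis2, the factor of other GABA neurons, was in these inhibitory nuclei at 108 to 346 CPM (median 173) in P301S Cgas+/+ and 56.1 to 122 CPM (median 83.4) in P301S Cgas-/- libraries, ranges that overlap, with a deletion estimate of -1.42 ± 0.60 (SE) on the log2 scale (edgeR, unadjusted p = 0.0283, adjusted 0.970). The part of Meis2 nuclei in the share was not tested.

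As a share of all passing nuclei, members made up 0.106 ± 0.0446% in P301S Cgas+/+, 0.247 ± 0.106% in P301S Cgas-/- (exact p = 0.00433, adjusted 0.0260) and 0.230 ± 0.109% in P301S Cgas+/- libraries (exact p = 0.0130, adjusted 0.0455). The heterozygous call was lost (adjusted p of 0.0584 to 0.110) on leaving out any of 9 of the 12 mice, the 3 others being P301S Cgas+/- replicates 1 and 3 and P301S Cgas+/+ replicate 1. The tau difference in this share was -0.101 points (exact p = 0.0844, adjusted 0.203), and -0.140 points without Cgas+/+ replicate 2, which passed (adjusted p = 0.0364, exact permutation test). The Pvalb level in all inhibitory nuclei needs no cut on Pvalb. It counts the Pvalb molecules that chose the members, however, and so is not a result separate from the share. This level was 10.5 ± 2.71 CPM in P301S Cgas+/+ and 17.4 ± 4.60 CPM in P301S Cgas-/- libraries, a rise of 0.67 on the log2(CPM + 1) scale (exact p = 0.0152, adjusted 0.0455). That call held without P301S Cgas-/- replicate 4 or P301S Cgas+/+ replicate 1 or 2 and was lost on leaving out any of the other 9 mice (adjusted p of 0.0584 to 0.0974, exact permutation test). An edgeR quasi-likelihood fit of summed counts over all inhibitory nuclei gave Pvalb the same estimate, 0.67 ± 0.30 (SE), with an adjusted p of 0.970 over 13903 genes, of which 0% passed and 4.86% had an unadjusted p under 0.05. The same fit called 1 gene in the tau contrast (Gm43049, 0.00719%, with 2.53% under 0.05 unadjusted) and 0 in the heterozygous contrast (4.13% under 0.05 unadjusted). Of 25 marker genes tested there, 18 had positive estimates with the deletion (median 0.07, with 52.3% of all genes positive), 12 in the heterozygous contrast (-0.02, 53.0%) and 7 with tau (-0.09, 49.1%). Without P301S Cgas+/- replicate 1, a fit added after seeing the data, 17 had positive heterozygous estimates and their median turned to 0.08 (51.7% of all genes positive), while the deletion and tau counts were 18 and 8. No marker was called in either fit.

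**Figure D3:**
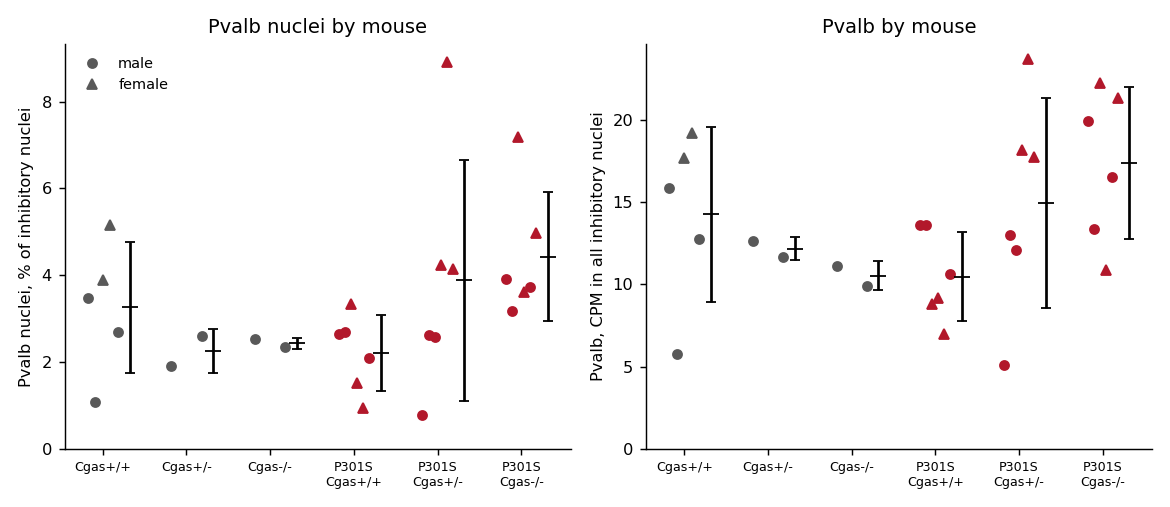
Pvalb nuclei as a percent of inhibitory nuclei (left) and Pvalb CPM summed over all inhibitory nuclei (right) in each of 27 mice by labelled group, with mean and SD beside the points (circles males, triangles females, red P301S). On the left, 5 of 6 P301S Cgas-/- libraries lie above all P301S Cgas+/+ libraries, whose highest is 3.33%.

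The deletion difference in the share among inhibitory nuclei was 1.67 to 2.47 points in the 12 leave-one-out runs and passed in each, and the ratio of the 2 mean shares was 2.01. In this and every other alternative only the p of that test was replaced, with the other 11 kept at their full-set p. An adjustment over 12 recomputed tests was not made, and calls near the threshold could differ under it. With a single Pvalb UMI enough, the shares were 12.3% and 7.28%, a ratio of 1.69 (exact p = 0.00216, adjusted 0.0260). With at least 3 Pvalb UMIs they were 1.29% and 0.595%, a ratio of 2.17 (exact p = 0.0325, adjusted 0.0974). With at most 4000 genes per nucleus they were 2.66% and 1.33% (exact p = 0.0325, adjusted 0.0974), so under both of these the call was lost with a ratio near that of the full set. With every nucleus thinned to 8000 UMIs they were 2.05% and 1.51%, a ratio of 1.35 (exact p = 0.426). Thinned to 4000 UMIs they were 0.675% and 0.104% and passed (exact p = 0.00866, adjusted 0.0455), but on 10 and 2 members. Within libraries whose file header gave version 3.1.0 it was 2.90 points (4 against 4, exact p = 0.0286, the smallest this size allows) and within those of version 3.0.2, all from males, 0.872 points (2 against 2, exact p = 0.333, the smallest possible). It was 1.13 points in males and 3.32 in females (exact p = 0.1 each, the smallest possible). Within version 3.1.0 the deletion difference was also 0.193 points in the share of all passing nuclei and 0.89 in the Pvalb level, and the heterozygous one 0.185 points in the share of all passing nuclei (4 against 4, exact p = 0.0286 each), while within version 3.0.2 these were 0.0366 points, 0.25 and 4.54e-05 points (2 against 2, exact p of 0.667, 1 and 1). Without P301S Cgas+/- replicate 1 the heterozygous difference among inhibitory nuclei was 2.29 points (exact test, adjusted p = 0.0883), and without P301S Cgas+/- replicate 5, the library at 8.92%, it was 0.665 points (exact test, adjusted p = 0.426). The tau difference ranged from -1.60 points without Cgas+/+ replicate 2 to -0.581 without Cgas+/+ replicate 4, and passed in none of the 11 leave-one-out runs. It was -2.59 points in females and 0.0585 in males. For tau, version 3.1.0 gave -0.179 points in the share of all passing nuclei and -0.82 in the Pvalb level (4 against 3, exact p = 0.0286 each, the smallest possible). Version 3.0.2 gave 0.0275 points and 0.46 (2 against 2). All contrasts share the 4 P301S Cgas+/+ libraries of version 3.1.0. Thinning to 8000 UMIs kept 24 members in P301S Cgas+/+ and 37 in P301S Cgas-/- libraries and left out 42384 and 32091 shallower nuclei. Median depth of all passing nuclei was lower in P301S Cgas+/+ (4192 ± 1247 UMIs, n = 6) than in P301S Cgas-/- libraries (5968 ± 1816, exact p = 0.0823), while that of inhibitory nuclei was 10470 ± 2244 and 11052 ± 2230. In P301S Cgas+/- libraries, where the share of all passing nuclei also differed, it was 6094 ± 679 over all passing nuclei (exact p = 0.00866 against P301S Cgas+/+) and 10299 ± 2336 in inhibitory nuclei, and apart from thinning the part of depth in the shares was not tested. The share of Vip nuclei also differed with the deletion, by 2.49 points (exact unadjusted p = 0.0281), and as a share of the 4 classes, which leaves out the unclassed inhibitory nuclei, the members made up 16.4% and 11.6%, a difference of 4.83 points and a ratio of 1.42 (exact p = 0.0476, adjusted 0.143). Median UMIs per member did not pass in any contrast (adjusted p of 0.325 to 0.697, exact permutation test).

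Within members, no gene passed an adjusted p of 0.05 in any of the contrasts. Summed counts of mice with at least 10 members were fitted with edgeR's quasi-likelihood test and sex as a covariate, leaving 4 Cgas+/+, 3 P301S Cgas+/+ (all males, 38 nuclei), 6 P301S Cgas+/- and 6 P301S Cgas-/- mice. Of 4981 genes tested, 0% were called in the tau, deletion and heterozygous contrasts, and 227 (4.56%), 208 (4.18%) and 229 (4.6%) had an unadjusted p under 0.05. DESeq2 also called 0, with 152, 147 and 184 at an unadjusted p under 0.05. A fit of all P301S against all other mice (20 mice, 5242 genes) called 0%, with 265 genes (5.06%) under 0.05 unadjusted, and DESeq2 called 0 with 198. That fit had sex and the number of Cgas copies as covariates. Its other mice were 4 Cgas+/+ and 1 Cgas+/-, with no Cgas-/- mouse. The 6 P301S Cgas-/- mice thus had no counterpart of the same copy number, and the P301S estimate compares Cgas+/+ and Cgas+/- mice only. The median 95% interval reached 0.70 to 0.75 on the log2 scale to either side of an estimate in the 3 contrasts and 0.60 in the fit of all P301S mice. For the typical gene, smaller estimates thus did not reach an unadjusted p of 0.05. Adjustment over all genes asks for larger ones still, and Nfx1 at 1.05 in the deletion contrast was not called (edgeR adjusted p = 0.836).

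Mef2c was among the most precisely measured. It was at 1091, 1159 and 1188 CPM in the 3 fitted P301S Cgas+/+ mice and at 998 to 1378 CPM in the 6 P301S Cgas-/- mice, ranges that overlap. The deletion estimate was a log2 fold change of 0.02 (95% interval -0.30 to 0.33, edgeR adjusted p = 0.999). Of the class IIa deacetylases, Hdac9 had an estimate of 0.72 ± 0.24 (SE, unadjusted p = 0.00528) and Hdac4 of -0.58 ± 0.21 (unadjusted p = 0.00829) in the edgeR fit, neither past the threshold (adjusted p = 0.999). Hdac4 was at 239 to 441 CPM in the fitted P301S Cgas+/+ mice and 192 to 283 CPM in P301S Cgas-/- mice, and Hdac9 at 183 to 263 and 152 to 452 CPM, so both overlapped. The 22 genes the study named for inhibitory neurons were chosen on these samples and in both directions, so their signs have no common direction, and 13 estimates were positive and 9 negative in the deletion contrast (median 0.04, all genes -0.01). Kcnc1 had -0.07 (interval -0.51 to 0.36), Gabbr2 -0.12 (-0.49 to 0.25) and the sodium channel Scn1a 0.26 (-0.08 to 0.60).

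**Figure D4:**
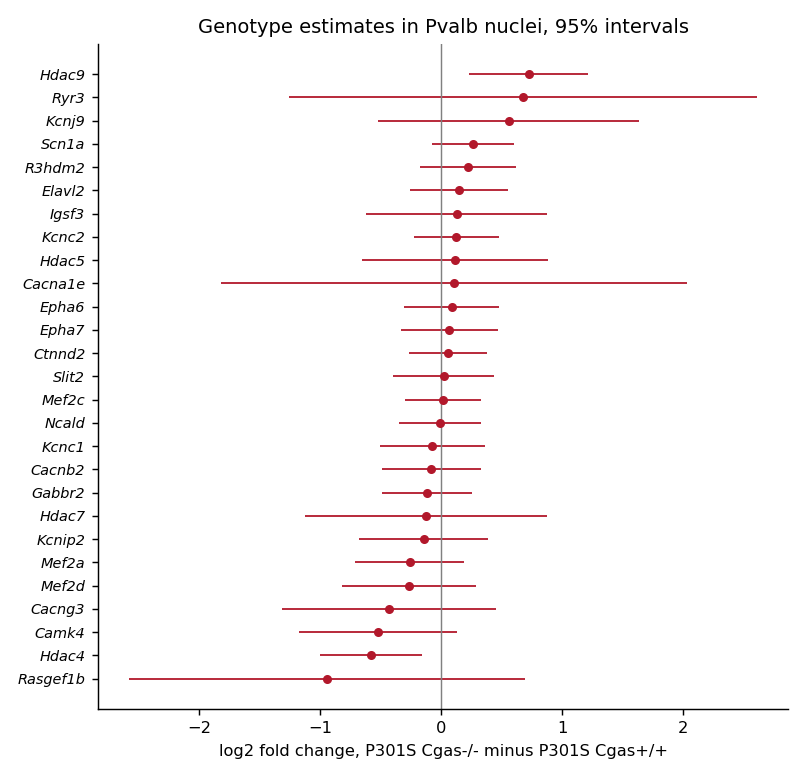
Estimated log2 fold changes (x axis) with 95% intervals for MEF2 family, class IIa deacetylase and other study-named genes in Pvalb nuclei, P301S Cgas-/- minus P301S Cgas+/+ (6 against 3 mice in a fit of 19). The intervals of Hdac9 and Hdac4 lie to one side of 0, at 0.72 and -0.58, no gene passed adjustment, and Mef2c sits at 0.02.

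No gene list had a called member in any contrast. Fast-spiking channels had 21 of 37 positive deletion estimates (median 0.04), with Kcns3 the 1 gene at an unadjusted p under 0.05, at 1.17 ± 0.51 (SE, edgeR adjusted p = 0.999). Of all 4981 genes, 49.3% had positive deletion and 50.7% positive tau estimates, and since both contrasts share the 3 fitted P301S Cgas+/+ mice, opposite signs in them are not separate results. Perineuronal net genes had 1 of 7 positive with the deletion (median -0.34) and 6 of 7 positive with tau (0.26). In the deletion contrast Crtac1 had -0.46 ± 0.25, Bcan -0.49 ± 0.42 and Chst11, the positive one, 0.48 ± 0.43. Mitochondrial genes had 2 of 13 positive (median -0.10), glutamate receptor genes 7 of 24 (-0.11), release genes 5 of 20 (-0.07) and fate factors 12 of 14 (0.10). GABA receptor, adhesion, calcium, tau-related, neuropeptide, activity-regulated and heat shock lists had medians from -0.19 to 0.44. Interferon genes could hardly be measured, with 2 of 53 tested: Adar, the RNA-editing enzyme, at 0.17 (interval -0.28 to 0.62) and Jak1, the receptor kinase, at -0.11 (-0.62 to 0.39). Of 8 cGAS-STING genes the kinase Tbk1 alone was tested, at -0.38.

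The genes of smallest p are given as values that did not pass. They were picked from all genes tested, and the share of all genes whose ranges do not overlap between so few mice was not counted. Caln1, a calcium-binding protein related to calmodulin, was at 394, 416 and 492 CPM in the fitted P301S Cgas+/+ mice, 171 to 285 CPM in Cgas+/+, 249 to 394 in P301S Cgas+/- and 137 to 406 in P301S Cgas-/- mice. The P301S Cgas+/+ mice with under 10 members had 309, 455 and 647 CPM. Cgas+/+ replicate 2, also under 10 members, had 380 CPM, within the range of all 6 P301S Cgas+/+ mice. The tau estimate of Caln1 was 1.11 ± 0.24 (SE, edgeR adjusted p = 0.188) and its deletion estimate -0.82 ± 0.22 (adjusted p = 0.836). The tau estimate passed without likely doublets (1.21, edgeR adjusted p = 0.0431) and without the 5 members lacking Erbb4 and Nxph1 (1.24, adjusted p = 0.0160). It did not pass with no minimum of members per mouse (0.89, edgeR adjusted p = 0.168). In the fit of all P301S against all other mice, with Cgas copies as a covariate, the estimate was 0.41 ± 0.25 (adjusted p = 1). Nfx1, a zinc-finger factor, was at 47.8 to 64.9 CPM in the fitted P301S Cgas+/+ mice and 76.4 to 156 CPM in P301S Cgas-/- mice, and Larp4b, an RNA-binding protein, at 53.8 to 90.9 and 108 to 153 CPM. For both genes these ranges leave out the females of P301S Cgas+/+, which had under 10 members. The deletion estimates of Nfx1 and Larp4b were 1.05 ± 0.29 and 0.94 ± 0.25 (edgeR adjusted p = 0.836 each) and their heterozygous ones 1.19 and 0.92 (0.674 each). Robo2, the Slit receptor, had the smallest heterozygous p, with 0.76 ± 0.19 (edgeR adjusted p = 0.674). Tcerg1l led the fit of all P301S mice with -1.37 ± 0.28 (edgeR adjusted p = 0.144). The remainder (Shisa7, Frmpd3, Eif4e, Ift172, Syn3, Slc35f4, Cox10, Gm32647, Anapc10, A830082K12Rik and Dock10) had edgeR adjusted p of 0.476 or more in the fit that named them, and Frmpd3 passed in the tau contrast without Cgas+/+ replicate 1 (-1.99, adjusted p = 0.0413).

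Whether a genotype difference was itself different in members was tested as the interaction of class with group against pooled Sst, Vip and Lamp5 nuclei of the same mice, with mouse as a fixed effect in edgeR. Of 8882 genes, 1 was called in the tau contrast (0.0113%), 1 in the heterozygous contrast (0.0113%, with 5.56% at an unadjusted p under 0.05, against 4.72% with tau) and 0 in the deletion contrast (452, 5.09%, at an unadjusted p under 0.05). The called gene was Clstn2, which encodes calsyntenin 2, a synaptic adhesion protein (chromosome 9, 97444395 to 98033181, minus strand, GRCm38). In members it was at 1162, 1303 and 2306 CPM in the fitted P301S Cgas+/+ mice, at 684 to 1133 in Cgas+/+ and at 757 to 1387 in P301S Cgas+/- mice. In the pooled other classes the same groups were at 297, 496 and 503, at 462 to 659 and at 626 to 1074 CPM. The difference of log2 fold changes, members minus the other classes, was 1.15 ± 0.21 with tau (edgeR adjusted p = 0.0139) and -1.43 ± 0.19 in the heterozygous contrast (adjusted p = 2.47e-05), where members had -0.43 and the others 0.94.

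These calls depended on the mice fitted and on the model, edgeR or limma-voom. The P301S Cgas+/+ mice with under 10 members had 1553, 1755 and 2564 CPM of Clstn2 in members and 815, 923 and 812 CPM in the other classes. The latter lay above the fitted mice of that group, and in members the ranges overlapped. In that group the mice left out were all females and the fitted ones all males. Sex and the number of members therefore cannot be told apart there, and the interaction fit had no term of sex with class. Cgas+/+ replicate 2, also left out, had 2344 and 720 CPM. With all 23 mice the differences were 0.62 (adjusted p = 1) and -1.07 (adjusted p = 0.138), and with limma-voom, where mouse was a random block, 1.13 (0.999) and -1.42 (0.109). The tau call was lost without P301S Cgas+/+ replicate 2 (1.09, adjusted p = 0.269) or 6 (0.95, 0.285) or Cgas+/+ replicate 3 (1.06, 0.143) or 5 (1.06, 0.109), all by edgeR, with the estimate near the 1.15 of all fitted mice. Clstn2 was at 309 CPM in Sst, 815 in Vip and 1455 in Lamp5 nuclei, and the pool held 15.2 ± 9.89% Lamp5 nuclei in the fitted P301S Cgas+/+ mice (4.60% in replicate 6) against 22.4 ± 3.70% in P301S Cgas+/- mice, and the part of that make-up in the result was not tested.

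**Figure D5:**
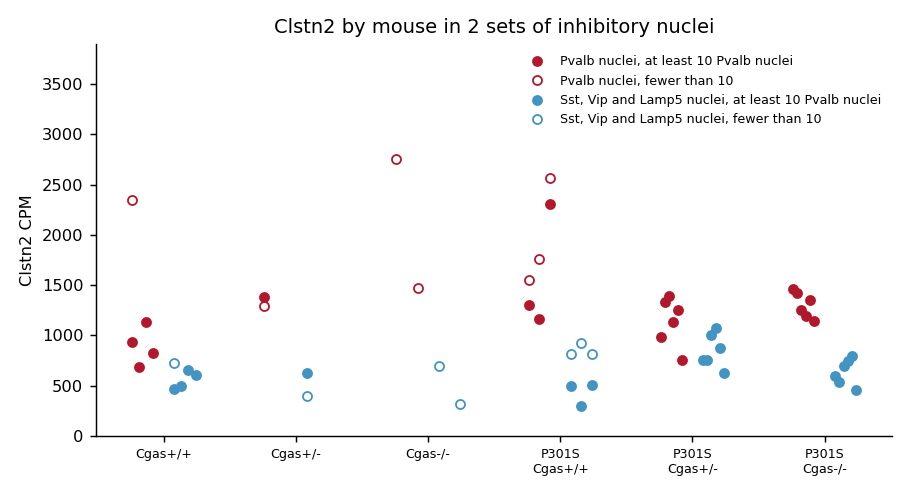
Clstn2 CPM by mouse and labelled group in Pvalb nuclei (red) and in pooled Sst, Vip and Lamp5 nuclei (blue), filled for mice with at least 10 Pvalb nuclei and open for the others. The 3 open blue points of P301S Cgas+/+ (812 to 923) lie above the 3 filled ones (297 to 503). In this group the open points are all females and the filled ones all males.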

How the data were processed

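Nuclei of 27 hippocampi were sequenced with droplet 3' chemistry, and per the paper's methods the authors used Cell Ranger 3.1.0 on mm10 with introns included. The deposited matrices hold raw UMI counts per gene and nucleus, and their headers name version 3.0.2 in 12 libraries and 3.1.0 in 15. Barcodes had been called as cells before deposit. Members and gene lists were chosen with earlier results of these data known.

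UMIs of the members were summed per mouse. Sums of mice with at least 10 members were tested with edgeR 4.0.16 (quasi-likelihood, TMM, R 4.3.3, Benjamini-Hochberg adjustment), the interaction with classes of the same mouse likewise. DESeq2 1.42.0 and limma 3.58.1 were alternatives. Shares and the Pvalb level, log2(CPM + 1), were compared over mice by exact two-sided permutation tests (Python 3.11.15, numpy 2.4.6), adjusted over 12 tests. For an alternative only the p of the recomputed test was replaced, and the others kept their full-set p. The Cgas levels were compared by the permutation test of scipy 1.17.1, unadjusted. Likely doublets (Scrublet in scanpy 1.11.5, 0.8% per 1000 barcodes) were kept, and removed in an alternative. Scripts were tested on simulated data. Named genes were all those past the threshold and, where fewer than 5 passed, the 5 of smallest p per fit; the 1 of smallest p or those past the threshold in the interaction; up to 4 per list; and for the classes the markers and the 15 highest and 15 lowest ratios. Examples in the text were taken from these and from the lists. Each library is 1 mouse. Member UMIs per library, 60589 to 680930, limit the precision, and intervals cover only what the model counts as error. Some genes are not reported here.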

Additional observations from a re-analysis of the deposited data

Results flagged for a closer look

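In P301S Cgas-/- replicate 3 the members made up 0.456% of passing nuclei, far from the other 5 libraries of its group, and without it the deletion difference in that share was 0.0992 points (exact permutation test, adjusted p = 0.0390). Mef2c in the members of P301S Cgas-/- replicate 5 stood at 1378 CPM, apart from the other 5 mice at 998 to 1128 CPM. Of 52 groups examined for such gaps 2 were picked out, and chance alone picks about 1 in 20.

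The heterozygous difference in the share among inhibitory nuclei was 3.83 points in females and -0.49 in males, a gap of 4.32 points (exact permutation of genotype within sex, p = 0.025, adjusted over 12 tests 0.15). The Pvalb level in inhibitory nuclei behaved likewise, with 1.16 in females and -0.38 in males on the log2(CPM + 1) scale, a gap of 1.54 (exact permutation p = 0.025, adjusted 0.15). Neither passed adjustment. P301S Cgas+/- replicate 1, the library with 15.8% inhibitory nuclei and Meis2 at 1283 CPM in them, is among these males, and its part in the gap was not tested. The females of both groups all had header version 3.1.0, and the version 3.0.2 libraries were all from males. Within version 3.1.0 the share difference was 2.99 points (4 against 4 mice), and within 3.0.2 it was -0.965 points (2 against 2). For the Pvalb level these were 0.91 and -0.66. Sex and header version thus largely overlap here, and their separate parts in the gaps were not tested.

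The estimated change of Clstn2 differed between members and pooled Sst, Vip and Lamp5 nuclei by 1.15 with tau (edgeR adjusted p = 0.0139) and by -1.43 in the heterozygous contrast (edgeR adjusted p = 2.47e-05). Both contrasts share the 3 fitted P301S Cgas+/+ mice, all males, while the mice of that group left out were females. Both calls were lost with no minimum of nuclei per mouse (0.62 and -1.07, edgeR adjusted p = 1 and 0.138) and with limma-voom (adjusted p = 0.999 and 0.109), and the tau call on leaving out P301S Cgas+/+ replicate 2 or 6 or Cgas+/+ replicate 3 or 5, with estimates of 0.95 to 1.09.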

How the results depend on the processing

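No paired analysis was possible because the replicate numbers were given in accession order and tie no mice together across groups. Of 114 values recomputed for 19 results without leaving out a mouse, 89 kept their direction and their side of the threshold. The deletion difference in the share among inhibitory nuclei became 1.33 points with at most 4000 genes, 0.534 thinned to 8000 UMIs, 0.695 with at least 3 Pvalb UMIs and 4.83 of the 4 classes, none past the threshold, and 4.99 with at least 1 Pvalb UMI, past it. The shares themselves change with the count, and their ratio was 2.01 in the full set, 1.35 thinned to 8000 UMIs, and 2.17 and 1.69 with at least 3 and at least 1 Pvalb UMI. In the share of all passing nuclei the deletion and heterozygous differences became 0.0629 and 0.0620 points with at most 4000 genes, 0.0251 and 0.0171 thinned to 4000 UMIs (which kept 2 members in P301S Cgas+/+ and 10 in P301S Cgas-/- libraries), and 0.0343 and 0.0657 thinned to 8000, also not past it. With at most 4000 genes the deletion difference in Pvalb level was 0.61 and missed the threshold, and the differences in median UMIs turned to -698 (tau), 943 (deletion) and 668 (heterozygous). Thinning to 8000 UMIs, the 4-class share, the removal of the 5 nuclei without Erbb4 and Nxph1, and fits of all mice were chosen after seeing the data.

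Genes called in the tau contrast were 3 without a filter on low counts (Fras1, Caln1, Gm32647), and 1 (Caln1) both without likely doublets and without the 5 nuclei. The heterozygous contrast called 1 (Fras1) when only its 2 groups were fitted. All P301S against other mice called 15 without a filter and 1 (Gm32647) with no minimum of nuclei. In the interaction, no minimum of nuclei gave 0 with tau, 1 with the deletion (Tll1) and 3 heterozygous (Kcnip1, Pip5k1b, Bcl6), and limma-voom with mouse as a random block, in place of edgeR with mouse as a fixed effect, gave 0 with tau and 0 heterozygous. The cause of these changes was not tested.

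Leaving out each mouse gave deletion differences of 1.67 to 2.47 points among inhibitory and 0.0992 to 0.158 among passing nuclei. All were past the threshold when the other tests kept their full-set p, and a joint adjustment of recomputed tests was not made. The share of passing nuclei ranged from -0.140 to -0.0630 with tau and from 0.0833 to 0.145 heterozygous, and the Pvalb level from 0.58 to 0.79 with the deletion. Median UMIs ranged from -1743 to 580 (579.5) with the deletion and from -2540 to 194.2 heterozygous, turning positive without P301S Cgas+/+ replicate 3 in both and without P301S Cgas-/- replicate 1 (13.98) in the deletion contrast. Genes called ranged from 0 to 1 with tau and stayed at 0 in the deletion and heterozygous contrasts, and those of the interaction ranged from 0 to 2 with tau, 0 to 1 with the deletion and 1 to 2 heterozygous. Of 1896 recomputed values of single genes, 101 changed sign, among them 7 of 20 for Mef2c.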

Other observations

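Gm43049 had 26 UMIs in members of 14 of 18 P301S libraries and 0 in the 9 other libraries (305 and 129 members). 4930590L14Rik had 5 UMIs in 4 P301S libraries and Gm32754 2 UMIs in 2, with 0 in the others. These transcripts were chosen after their values were seen, and the values in members were not tested. Over all inhibitory nuclei Gm43049 was the gene called in the tau contrast (edgeR adjusted p = 7.8e-07).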
